A study of Zea mays with 4 samples.

Results

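The 4 genes described here encode the maize transcription factors DOF3 (Zm00001d035651), KANADI1 (Zm00001d032249), MYB25 (Zm00001d010201) and a PLATZ family protein (Zm00001d002489, called PLATZ below). They were taken by gene identifier from count tables that list 46430 genes, and all 4 identifiers were found. The study listed each of them among transcripts enriched in the abaxial bundle sheath cluster of single leaf protoplasts, with MYB25 described as narrowly missing the limit on p. The study's listing came from the single cells. The 4 genes were chosen for this report with earlier results of the bulk libraries known.

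The samples were protoplasts and whole leaf of the maize inbred line B73. Both came from the distal 6 cm of leaf 2 of seedlings at the V2 stage, grown in a greenhouse without any other treatment. Protoplasts, which are cells freed of their walls by enzyme digestion, were pooled for 2 libraries (protoplast 1 and protoplast 2), and intact leaf segments were homogenized for 2 libraries (leaf 1 and leaf 2). The labels give 6 plants per protoplast pool, whereas the methods give 4 leaves for every pool. The comparison asks which transcripts differ between isolated protoplasts and the leaf they came from. Each library is a mixture of cell types, so that fewer cells of a type and less RNA per cell cannot be told apart in any value below. Leaf was ground at harvest, whereas protoplasts were first pretreated, digested for hours and washed. These steps and the time they took went with the group throughout. Their effects therefore cannot be told apart from a difference in cell types either.

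In the leaf of a C4 plant such as maize, mesophyll cells fix CO2 into C4 acids and the bundle sheath cells around the veins release it again for Rubisco. The bundle sheath cells on the abaxial, or lower, side face the phloem, and in maize they express the SWEET13 sucrose exporters. Transcription factors bind DNA and set which genes a cell type expresses. Dof proteins carry a single zinc finger that binds DNA, and a Dof factor of rice acts on SWEET genes. KANADI proteins belong to the G2-like (GARP) family and specify the abaxial side of leaves. The MYB family is large, and the product of MYB25 is annotated as the repressor MYB6. PLATZ proteins are plant-specific zinc-dependent proteins that bind AT-rich DNA.

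Coordinates are those of the AGPv4 assembly of B73. DOF3 lies on chromosome 6 from 38682464 to 38684890 on the plus strand and has 2 exons with 1967 exonic bases in all. KANADI1 lies on chromosome 1 from 218790654 to 218795894 on the minus strand, with 5 exons after merging and 2352 exonic bases. MYB25 lies on chromosome 8 from 103881482 to 103882231 on the plus strand and is annotated as a single exon of 750 bases. PLATZ lies on chromosome 2 from 13850163 to 13852195 on the plus strand, with 4 exons and 1509 exonic bases. None of the 4 overlaps another annotated gene on either strand. The nearest annotated gene stood 2898 bases from PLATZ and had 9 and 2 counts in the protoplast libraries, against 0 and 0 in the leaf libraries.

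Total counts were 47061988 in protoplast 1, 42815615 in protoplast 2 and 41792981 in leaf 2. The leaf 1 table analysed here stops within chromosome 3 and holds 18609 intact genes, among them KANADI1 and PLATZ but not DOF3 or MYB25. KANADI1 and PLATZ were therefore compared over 2 libraries against 2 (the 4-library fit, 9017 genes tested), and DOF3 and MYB25 over 2 protoplast libraries against leaf 2 (the 3-library fit, 23262 genes tested). With 1 leaf library, the second fit takes its spread from the protoplast pair and assumes that leaf varies alike. The labelled cell types were checked with the C4 genes of the study. None of the 6 mesophyll genes was called different (log2 fold changes between -0.15 and 0.67). Of the 12 bundle sheath genes, 11 were called lower in protoplasts, with a median log2 fold change of -5.42 in the 3-library fit. The sucrose transporter SUT1, a marker of phloem companion cells, had 19 and 13 counts in the protoplast libraries, against 15269 in leaf 2.

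The 4 transcripts did not move together. MYB25 was abundant in both protoplast libraries and close to absent from leaf 2, and DOF3 was present in leaf 2 and close to absent from both protoplast libraries. KANADI1 stood lower in both protoplast libraries than in both leaf libraries, at 0.566 times the leaf level with TMM scaling, and its direction depended on that scaling. PLATZ stood at nearly the same level in all 4 libraries with TMM scaling. It was called higher in protoplasts when bundle sheath genes set the scale, as were most genes (5681 or 7592 of the 9017 tested).

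**Figure D1:**
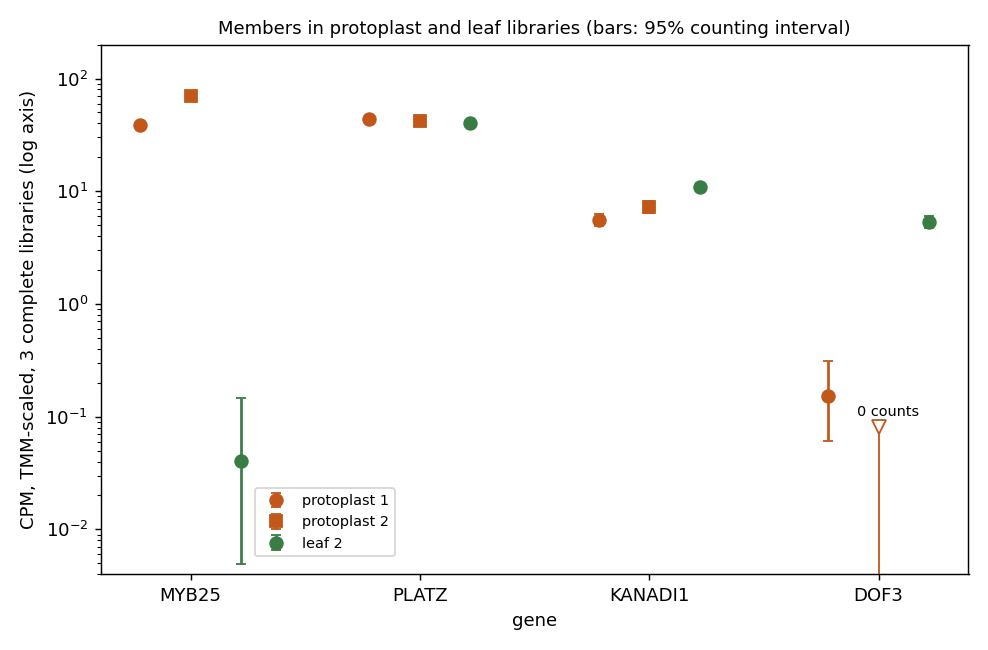
CPM, counts scaled to library size (log axis), of the 4 genes in the 3 complete libraries, scaled by TMM, with exact Poisson 95% counting intervals where they are wider than the symbol. The protoplast libraries are orange and leaf 2 is green. The open triangle marks the 3-count floor, 0.0811 CPM, of DOF3 in protoplast 2, where it had 0 counts. MYB25 stands at 38.6 and 70.2 CPM in protoplasts and at 0.040 CPM in leaf 2, and DOF3 runs the other way.

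MYB25 had 1773 counts in protoplast 1 and 2597 in protoplast 2, against 2 in leaf 2. Scaled by TMM, a factor that corrects library totals for differences in composition, this was 38.6 and 70.2 counts per 1000000 (CPM) in protoplasts, against 0.040 CPM in leaf 2. Both protoplast libraries lay far above leaf 2, and the counting intervals did not overlap. The CPM ratio to leaf 2 was 955 in protoplast 1 (95% interval 264 to 7892) and 1738 in protoplast 2 (481 to 14356), where the width comes from the 2 counts in leaf 2. The quasi-likelihood test of edgeR called MYB25 higher in protoplasts (log2 fold change 10.30, standard error 0.72, adjusted p = 2.32e-05), where the fitted fold change rests on the 2 counts in leaf 2. P-values were adjusted by the Benjamini-Hochberg method over every gene tested, and a call required both an adjusted p under 0.05 and a change of more than 1 on the log2 scale in either direction. Of all genes in this fit, 18.5% were called higher and 20.4% lower, 38.9% in all, and 46.2% passed the limit on p alone. MYB25 passed the filter on low counts only through the protoplast libraries, so that a tested value for it had to be a difference.

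The 2 protoplast libraries also differed from each other for MYB25. Its CPM in protoplast 2 was 1.82-fold that in protoplast 1 (95% counting interval 1.71 to 1.93). Among 19971 tested genes with at least 10 counts in both, the median difference between these libraries was 1.18-fold, and 93.8% of them differed by less than MYB25 did. For KANADI1 the same ratio was 1.30 (1.09 to 1.54), and for PLATZ it was 0.955 (0.893 to 1.02), an interval that includes equality.

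DOF3 had 7 counts in protoplast 1 and 0 in protoplast 2, against 266 in leaf 2. These counts correspond to 0.152 CPM in protoplast 1, against 5.37 CPM in leaf 2. In protoplast 2 the count of 0 was set to a floor of 3 counts, or 0.0811 CPM, while its 95% counting interval reached 3.69 counts. Leaf 2 exceeded both protoplast libraries beyond counting error. The level in protoplast 1 was 35.3-fold lower than in leaf 2 (95% interval 16.9 to 88.6). That in protoplast 2 was at least 66.3-fold lower, taking 3 counts as its floor, or at least 53.5-fold lower by the 95% interval. DOF3 was called lower in protoplasts by edgeR's quasi-likelihood test (adjusted p = 0.00068, log2 fold change -5.97, standard error 0.75), although the fitted value depends on the library at 0. It passed the filter on low counts only through leaf 2. DESeq2 gave a similar log2 fold change, -6.12, with an adjusted p of 0.202, and the adjusted p of DOF3 ranged between 3.68e-28 and 0.536 over its 8 alternatives with a test.

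KANADI1 had 256 counts in protoplast 1 and 267 in protoplast 2, against 677 in leaf 1 and 544 in leaf 2. Over the genes counted in all 4 libraries it averaged 18.3 ± 3.3 CPM in protoplasts and 32.2 ± 1.6 CPM in leaf (SD, n = 2 each). The groups did not overlap. The log2 fold change was -0.82 (standard error 0.17, 95% interval -1.23 to -0.41), and the adjusted p by edgeR's quasi-likelihood test was 0.0057. This p passed the limit, which 63.3% of all genes in the 4-library fit did, but the change was smaller than the required log2 fold change of 1, so KANADI1 was not called. Of all genes in this fit, 19.6% were called higher and 23.4% lower, 43% in all. Without protoplast 2, the log2 fold change was -1.05 and KANADI1 was called lower. In the 3-library fit, it was -0.78 with an adjusted p of 0.0295.

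PLATZ had 2018 counts in protoplast 1 and 1551 in protoplast 2, against 2275 in leaf 1 and 1987 in leaf 2. Scaled over the shared genes, it averaged 122.6 ± 4.1 CPM in protoplasts and 112.8 ± 0.91 CPM in leaf (SD, n = 2 each). The protoplast values of 125.5 and 119.7 CPM lay above the leaf values of 112.1 and 113.4 CPM without overlap, but by only 1.09-fold on the mean. The log2 fold change was 0.12 (standard error 0.12), with an adjusted p of 0.422 by edgeR's quasi-likelihood test. Its 95% interval ran from -0.18 to 0.42, so that with this scaling a change of 1.34-fold or more upwards lay outside it. Scaled by library totals alone, the log2 fold change was -0.17. With the bundle sheath genes described below as scale it was 1.57 or 2.90, so its sign and its call depended on the scaling. On those bundle sheath scales, 5681 and 7592 of the 9017 genes tested were called higher, so PLATZ shared its call with most genes.

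**Figure D2:**
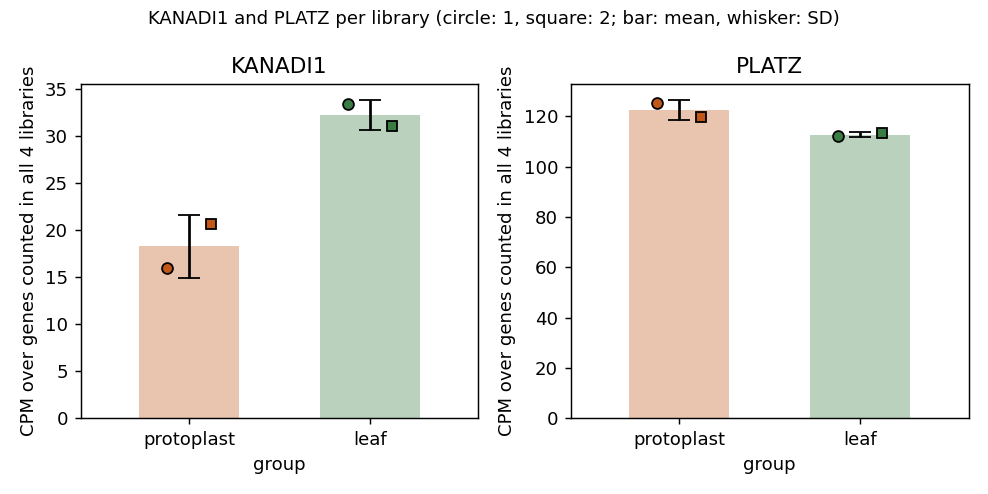
CPM of KANADI1 and PLATZ over the genes counted in all 4 libraries, TMM-scaled, in protoplasts (orange, left) and leaf (green, right). Circles are library 1 and squares library 2, bars are means and whiskers are SD (n = 2 each). KANADI1 averages 18.3 CPM in protoplasts and 32.2 CPM in leaf, and PLATZ averages 122.6 and 112.8 CPM in the same groups.

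The order of the 4 transcripts also changed between the groups when levels were compared per length, in TPM, which divides counts by exonic length and scales every library to the same sum. In protoplast 1 the levels were 65.3 TPM for MYB25, 37.0 for PLATZ, 3.01 for KANADI1 and 0.098 for DOF3. In protoplast 2 they were 105 TPM for MYB25, 31.1 for PLATZ and 3.43 for KANADI1, with DOF3 at 0. The order was the same in both, and no 2 neighbours overlapped between the libraries. In leaf 2 PLATZ came first with 43.5 TPM, then KANADI1 with 7.64, DOF3 with 4.47 and MYB25 with 0.088. Their counting intervals did not overlap, but 1 leaf library gives no replicate spread for this order.

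Ranks within a library, which do not depend on scaling between libraries, went the same way as the TMM-scaled values for MYB25, DOF3 and KANADI1. A rank is set against all other genes detected. It therefore cannot decide the direction of KANADI1, which turned when bundle sheath genes set the scale. MYB25 exceeded 93.3% and 95.3% of the genes detected in protoplasts 1 and 2, against 11.2% of those in leaf 2. DOF3 exceeded 15.6% of the genes detected in protoplast 1 and was not detected in protoplast 2, against 59.3% in leaf 2. KANADI1 exceeded 55.5% and 58.4% in the protoplast libraries, against 69.9% in leaf 2. PLATZ stayed among the more abundant transcripts throughout, above 89.7% and 88.6% of detected genes in protoplasts and above 91.9% in leaf 2. By rank and by TPM it thus stood lower in both protoplast libraries than in leaf 2, whereas its TMM-scaled CPM was slightly higher in both.

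Ratios between the members within a library are likewise free of scaling. For every 100 PLATZ counts there were 12.7 KANADI1 counts in protoplast 1 and 17.2 in protoplast 2, against 29.8 in leaf 1 and 27.4 in leaf 2. The counting interval of each protoplast library lay below that of each leaf library. The mean log2 ratio differed by -0.95, protoplast minus leaf, and the exact two-sided permutation test gave p = 0.333, the smallest that 2 libraries against 2 allow. For every 100 KANADI1 counts there were 2.73 DOF3 counts in protoplast 1 (95% interval 1.09 to 5.72) and 0 in protoplast 2 (up to 1.12 at 3 counts), against 48.9 in leaf 2 (42.1 to 56.7). MYB25 gave 87.9 and 167 counts per 100 PLATZ counts in the protoplast libraries, against 0.10 in leaf 2.

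The members were next set beside the genes that mark the bundle sheath, since all 4 were listed with that cell type. The paper states that MYB25 was not specific to bundle sheath, with sparse expression in mesophyll, and calls the KANADI enrichment weak. A ratio to these marker genes is therefore not a comparison within a single cell type. The 12 C4 bundle sheath genes, which include the Rubisco small subunits, NADP-malic enzyme (ME1) and phosphoenolpyruvate carboxykinase (PCK1), summed to 1346 and 1362 CPM in the protoplast libraries, against 31099 CPM in leaf 2. The 6 C4 mesophyll genes, which include phosphoenolpyruvate carboxylase (PEP1) and carbonic anhydrase (CAH1), summed to 67538 and 72260 CPM in protoplasts, against 60178 CPM in leaf 2. The shift of the marker genes thus went with the comparison itself, and its part in the values of the 4 transcription factors was not tested.

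Relative to the summed C4 bundle sheath counts, DOF3 stood lower in protoplast 2 but not clearly so in protoplast 1, and the other members stood higher in protoplasts. The log2 ratio of DOF3 to that sum was -13.11 in protoplast 1, against -12.50 in leaf 2, a difference of -0.61 that rests on 7 counts. In protoplast 2, where DOF3 had 0 counts, the ratio was lower than in leaf 2 by at least 1.54 on the log2 scale, taking 3 counts as the floor. Without the Rubisco genes in the sum, the difference in protoplast 1 was -0.13, and relative to a wider list of 113 bundle sheath genes it was -2.39. For KANADI1 the ratio to the 5 C4 bundle sheath genes counted in all libraries was higher in protoplasts by 3.40 on the log2 scale, and for PLATZ by 4.35. The size depended on the genes summed. Without the Rubisco genes it was 4.35 for KANADI1 and 5.30 for PLATZ, and with the wider list 2.24 and 3.19. The groups did not overlap for either gene, and the exact two-sided permutation test gave p = 0.333 for both, the smallest this design allows. For MYB25 the difference to leaf 2 was 14.43 in protoplast 1 and 15.28 in protoplast 2. Relative to the 2 mesophyll genes counted in all libraries, the differences turned to -1.12 for KANADI1 and -0.17 for PLATZ.

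The scale of the libraries therefore decided the sign for KANADI1 and PLATZ. The wider bundle sheath list holds genes first marked in single cells, most of which the authors tabulated as differing between these bulk libraries, so it is not independent of them. With the 53 of its 113 genes that were counted in all 4 libraries setting the scale, the log2 fold change was 0.63 for KANADI1 and 1.57 for PLATZ. With the 5 C4 bundle sheath genes counted in all 4 libraries it was 1.96 for KANADI1 and 2.90 for PLATZ. These scales moved the median of all genes in the 4-library fit by 1.45 and 2.78, so that each value carries that shift. In the 3-library fit the full lists, of 113 and 12 genes, moved the median by 2.00 and 5.37. There, DOF3 kept a negative value, and was no longer called with the C4 genes (-0.65, adjusted p = 0.536). The log2 fold changes of MYB25 lay between 9.92 and 15.53 over its 8 alternatives with a test. All of them rest on the same 2 counts in leaf 2, so their agreement is not separate support. On the bundle sheath scales, most genes of the 3-library fit were called higher.

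**Figure D3:**
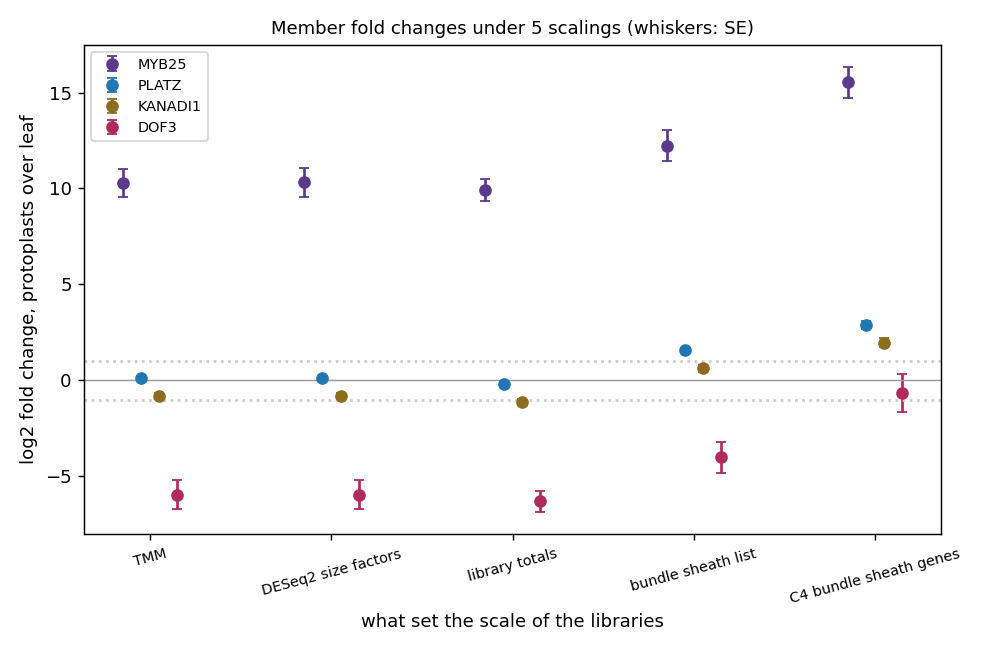
Log2 fold change of the 4 genes, protoplasts over leaf, under 5 ways of setting the scale of the libraries, with standard errors as whiskers. KANADI1 and PLATZ come from the 4-library fit, DOF3 and MYB25 from the 3-library fit. KANADI1 stands at -0.82 with TMM and at 1.96 with the C4 bundle sheath genes as scale, and MYB25 lies between 9.92 and 15.53 over the 5 scalings.

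The SWEET13 genes, whose products export sucrose from the abaxial bundle sheath, were lower in protoplasts for all 3 copies. The paper also located their mRNA in phloem parenchyma and recovered no vascular cells as single protoplasts. Their counts in leaf are therefore not a measure of bundle sheath alone. SWEET13a had 276 and 100 counts in the protoplast libraries, against 11936 in leaf 2. SWEET13b had 19 and 5 counts in protoplasts, against 2166 in leaf 2, and SWEET13c had 181 and 113, against 8982. Their log2 fold changes in the 3-library fit were -5.78, -7.25 and -5.69. With the C4 bundle sheath genes as scale, their median was -0.41. The marker genes of the adaxial bundle sheath, CC3 and MT1b, had log2 fold changes of -2.24 and -4.23 in the same fit. With the C4 genes as scale the median of CC3 and MT1b was 2.14, on a scale that moved the median of all genes by 5.37.

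Among the 156 transcription factors the study listed with any leaf cluster, 153 were tested in the 3-library fit. Of these, 84 were called higher and 31 lower, or 54.9% and 20.3%, beside 18.5% and 20.4% of all genes. Their median log2 fold change was 1.79, against -0.04 over all genes. The list was drawn from single protoplasts, so detection there was part of how it was made. The 49 tested factors listed with the abaxial bundle sheath other than the 4 members had a median log2 fold change of 0.51. They come from a wider cluster list than the genes the paper tabulates as higher in abaxial than in adaxial bundle sheath. Those genes, 36 without the members and of any function, had a median of -1.98. According to the paper, protoplast isolation induced no gene of the abaxial subcluster, and several had lower mRNA in protoplasts. In the 3-library fit, however, the log2 fold changes of those 36 genes ran from -7.25 to 5.94, so they did not all stand lower. MYB25, described as narrowly missing the limit on p, also stood far higher in protoplasts than in leaf 2. Why these values differ from the paper's statement was not tested. With the C4 bundle sheath genes as scale the median of the 49 factors was 5.88, beside the 5.37 by which the median of all genes moved. By log2 fold change KANADI1 ranked 120th and PLATZ 103rd from the highest of the 153. DOF3 and MYB25 are not ranked, since the fitted values of genes with so few counts in a library cannot be ordered.

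**Figure D4:**
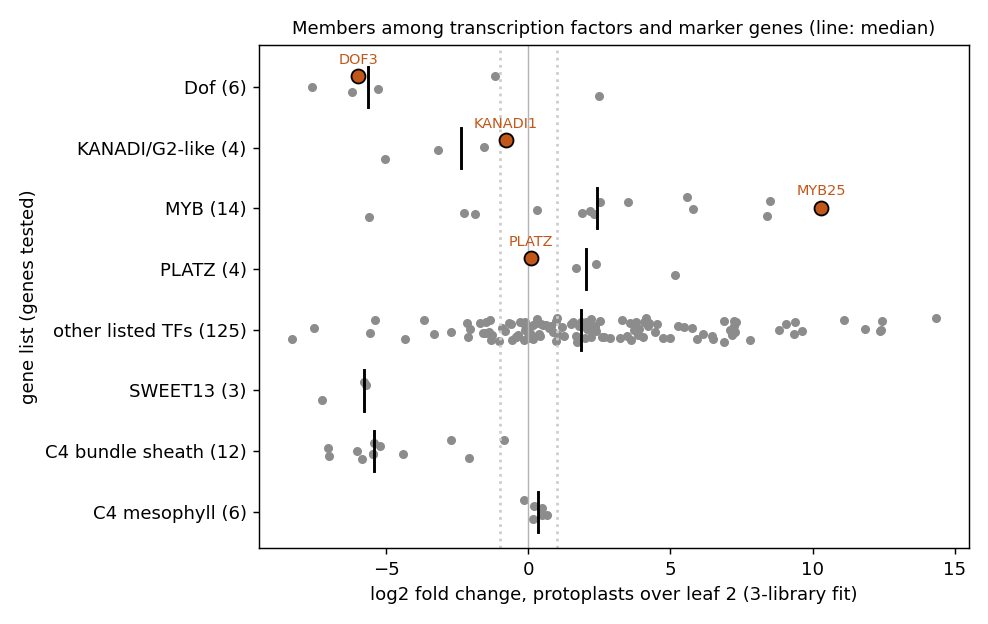
Log2 fold change, protoplasts over leaf 2 (3-library fit), of the listed transcription factors by family, the SWEET13 genes and the C4 marker genes. Each grey point is a gene, orange points are the 4 members, black lines are medians, and dotted lines mark the limits of 1 and -1. Points of 1 row are spread vertically at random. Values of genes with 3 counts or fewer in a library, DOF3 and MYB25 among them, are fitted and their order cannot be read. PLATZ, at 0.10, is the lowest of the 4 genes of its family.

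Of the 6 listed Dof genes, 5 stood lower and 1 higher, with a median log2 fold change of -5.62. The C4 bundle sheath genes as scale brought this median to -0.28, while the median of all genes moved up by 5.37. The lower ones besides DOF3 were Zm00001d012963 with 1 and 1 counts in protoplasts, against 261 in leaf 2, and Zm00001d047802 with 9 and 2, against 483. Zm00001d051439 had 12 and 9 counts, against 487 in leaf 2, and a log2 fold change of -5.27. Zm00001d022525, the most abundant Dof gene, had 2440 and 1915 counts in protoplasts, against 5789 in leaf 2, and changed by -1.16. Zm00001d026096 alone was higher, with 745 and 1147 counts, against 210 in leaf 2, and a log2 fold change of 2.47. For Dof and MYB genes other than the members, no fold change is given where a library had 3 counts or fewer.

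The 4 listed KANADI and G2-like genes all stood lower, and KANADI1 had the smallest change. Their median log2 fold change was -2.36, and 3.01 with the C4 bundle sheath genes as scale, which moved the median of all genes by 5.37. Golden plant2 (Zm00001d039260), a regulator of chloroplast development in bundle sheath, had 297 and 259 counts in protoplasts, against 3250 and 2989 in leaf, and a log2 fold change of -3.11 in the 4-library fit. G2-like1 (Zm00001d044785) had 3860 and 3068 counts in protoplasts, against 12130 in leaf 2 (-1.55). The study listed golden plant2 and G2-like1 with mesophyll clusters only, not with bundle sheath. Zm00001d050404 had 11 and 4 counts, against 292 in leaf 2 (-5.02).

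The 14 listed MYB genes had a median log2 fold change of 2.42, with genes called in both directions. With the C4 bundle sheath genes as scale this median was 7.75, beside a shift of 5.37 in the median of all genes. Zm00001d042665, which carries the same repressor annotation as MYB25, had 2174 and 2505 counts in protoplasts, against 250 in leaf 2, and a log2 fold change of 3.51. It was thus detected well in leaf 2, where MYB25 had 2 counts. Whether the counting could divide reads between these 2 genes was not found in the sources used here. Zm00001d048647 had 3022 and 3142 counts in protoplasts, against 77 in leaf 2 (5.60), and Zm00001d032694 had 384 and 402, against 106 (2.16). Zm00001d046981 had 97 and 100 counts, against 24 in leaf 2 (2.30), and Zm00001d003064 had 23 and 26, against 5 (2.53).

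The remaining 3 MYB genes that were called higher had 3 counts or fewer in leaf 2. Zm00001d038288 had 668 and 538 counts in protoplasts, against 2 in leaf 2. Zm00001d047579 had 122 and 163 counts, against 3, and Zm00001d024725 had 41 and 44, against 0. The pattern of MYB25, near absence from leaf 2 beside presence in protoplasts, thus occurred in other MYB genes at lower counts. The genes called lower were the MYB48 homolog Zm00001d030678 with 37 and 19 counts, against 1609 in leaf 2 (-5.60), Zm00001d039492 with 328 and 268, against 1295 (-1.86), and Zm00001d011614 with 14 and 10, against 69 (-2.26).

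The 3 other listed PLATZ genes stood higher in both protoplast libraries than in leaf 2. So did most of the listed factors, with a median log2 fold change of 1.79, against -0.04 over all genes. A rise is thus not particular to the PLATZ genes. Zm00001d051511 had 4584 and 6463 counts, against 189 in leaf 2, and a log2 fold change of 5.17. Zm00001d026047 had 1140 and 1824 counts, against 567 in leaf 2 (1.69), and Zm00001d017682 had 298 and 426, against 85 (2.39).

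By Euclidean distance in log2(CPM + 0.5) over the 3 complete libraries, each member was compared with the other 155 listed factors. The nearest to DOF3 were the Dof gene Zm00001d012963 (distance 0.33) and the G2-like gene Zm00001d050404 (0.36), both described above. The nearest to MYB25 were the WRKY genes Zm00001d038451 (0.24), with 2043 and 2475 counts in protoplasts, against 4 in leaf 2, and Zm00001d046805 (0.38), with 1510 and 3166, against 0. The nearest to PLATZ were the BEL1-like homeobox gene Zm00001d035907 (0.33), with 1605 and 1571 counts, against 1913, and bZIP4 (Zm00001d018178, 0.47), with 1822 and 1514, against 1454. Neither was called, and bZIP4 had a log2 fold change of 0.46 (adjusted p = 0.162 by edgeR's quasi-likelihood test).

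The nearest to KANADI1 were less close. They were the NAC gene Zm00001d024268 (distance 0.60), with 268 and 182 counts in protoplasts, against 680 in leaf 2, and the NF-Y subunit gene Zm00001d042968 (0.70), with 365 and 228, against 385. The first was called lower (-1.35) and the second was not called (-0.14).

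For scale, the largest increases among the 138 listed factors with more than 3 counts in every complete library were a WRKY gene, Zm00001d036726, with 28046 and 37233 counts in protoplasts, against 7 in leaf 2 (log2 fold change 12.45), and an AP2 gene, Zm00001d031796, with 26132 and 25829, against 14 (11.11). The largest decreases were Zm00001d030678 above and the bHLH gene Zm00001d037771, with 12 and 15 counts, against 780 (-5.57). DOF3 and MYB25 were outside this set because each had a library with 3 counts or fewer.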

How the data were processed

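Bulk RNA-seq libraries of 2 protoplast pools and 2 leaf pools were compared. The authors trimmed reads with Trim Galore 0.6.5, aligned them with STAR 2.5.1b to the AGPv4 genome of B73 and counted them per gene with featureCounts 2.0.1 (versions from the submitters' processing notes). The deposited values are raw counts per gene without normalization. Whether strand or reads with several matches were counted was not found in the sources used here. All libraries shared a sequencing lane. Replicates were separate pools of plants grown concurrently.

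A row of leaf 1 was used where its annotation matched the other libraries, which left 18609 of 46430 genes and dropped 10 damaged lines. Fits used R 4.3.3, edgeR 4.0.16 (filterByExpr by group, TMM, robust quasi-likelihood test, no block), with limma 3.58.1 and DESeq2 1.42.0 as alternatives, and were tested on simulated data with known changes. Calls required an adjusted p under 0.05 (Benjamini-Hochberg, all genes tested) and a change of more than 1 on the log2 scale, protoplast over leaf. Standard errors are the absolute log2 fold change over the root of the F statistic. The methods give the fold limit, and no limit on p was found there.

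Counting intervals are exact (Poisson, or Clopper-Pearson for ratios) at 95%, and floors are 3 counts, or 0.0606 to 0.0811 CPM over the complete libraries. Both describe counting error alone, because the reads carried no molecular identifiers and copies of 1 molecule may be counted repeatedly. TPM used the exonic lengths in the files. Ratios to markers used exact permutation tests (scipy).

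The members, gene lists and tests were chosen with earlier results of these data known. Named genes are the members, the called genes of the Dof, KANADI and G2-like, MYB and PLATZ families in the study's cluster tables, the 2 listed factors nearest to each member, the 2 largest called increases and decreases among listed factors with more than 3 counts in every complete library, bZIP4 and the SWEET13 genes. Alternatives covered scaling, tool, filter, single libraries, the replicate block and marker lists. Names come from the study's tables, since the reference table of assembly NAM-5.0 matched none of the identifiers. Sequences were not analysed here.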

Additional observations from a re-analysis of the deposited data

How the results depend on the processing

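KANADI1 and PLATZ depended on what set the scale of the libraries. KANADI1 had a log2 fold change of -1.12 with library totals, past the fold limit, and turned to 0.63 with the bundle sheath list and 1.96 with the C4 bundle sheath genes. PLATZ turned to -0.17 with library totals and was called at 1.57 and 2.90 on those bundle sheath scales, where 5681 and 7592 of 9017 genes were called higher. DOF3 lost its call with the C4 genes as scale (-0.65) and with DESeq2 (-6.12), and the cause was not tested. Relative to mesophyll genes in place of bundle sheath genes, the log2 differences turned to -1.12 for KANADI1 and -0.17 for PLATZ. The 3880 calls of the 4-library fit became 6578 and 8112 on the bundle sheath scales and 9047 with the 3 complete libraries, where more genes are tested. The 9047 calls of the 3-library fit became 18107 and 21645. With library totals, 34.8% of its calls were higher, against 47.5% with TMM.

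Leaving out each library in turn gave between 3619 and 4096 calls, log2 fold changes from -1.05 to -0.64 for KANADI1 and from 0.084 to 0.117 for PLATZ, and marker ratios from 3.23 to 3.57 for KANADI1 and from 4.29 to 4.40 for PLATZ. Against leaf 2, single protoplast libraries gave 9.90 to 10.76 for MYB25 and -6.05 to -5.14 for DOF3, with the first a bound from the 3-count floor. DOF3 and MYB25 had no value where at least 10 counts were required in every library.

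Same-numbered libraries did not deviate together (correlation of deviations -0.21 over 9017 genes), so the numbers were not taken as pairs. With the replicate block there were 3760 calls, and 3902 with the pairs crossed. The block gave -0.83 for KANADI1 (adjusted p = 0.0063, edgeR) and 0.12 for PLATZ, and changed neither call. No paired analysis was possible for DOF3 and MYB25 because they have only 1 leaf library.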
